A study of Mus musculus with 32 samples.

Results

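The Hox genes were read in mouse parathyroid cells that carried a Pth-tdTomato reporter. They are the protein-coding genes whose symbol is Hoxa, Hoxb, Hoxc or Hoxd followed by a number. The mouse annotation holds 39 of them among the 35458 genes measured here, and all 39 are counted below. Of these, 12 had at least 1 read in any of the 32 libraries and 27 had none.

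Hox proteins are homeodomain transcription factors encoded in 4 clusters, HoxA to HoxD. Within a cluster the genes lie in the order in which they are used along the body axis, so paralog group 1 stands for the head end and group 13 for the tail. Parathyroid glands arise in the mouse from the pharyngeal pouches of the embryonic neck. Hoxa3 is required in mouse embryos for the pouch organ that gives thymus and parathyroid, and Hoxa2 sets the identity of the second pharyngeal arch. Undifferentiated embryonic stem cells (ESCs) are not yet assigned to a position along this axis. The comparison asks whether cells made from them carry the same Hox code as the gland of an ordinary mouse.

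Each library came from 10 to 20 fluorescent cells picked by hand, with full-length cDNA made by SMART-Seq HT. The graft experiment held grafted mouse ESC-derived cells from Gcm2-/- mice, aged 12 weeks and labelled male. The rat-host experiment held cells from a Gcm2-/- Wistar rat neonate of unknown sex that had been complemented with Pth-tdTomato mouse ESCs. The 4 mouse-host experiments held cells at 9 weeks from Gcm2-/- hosts on a BDF1B6 background complemented with the same kind of ESCs, with experiments 1 to 3 labelled female and experiment 4 male. The graft carries that strain label too. The 2 control experiments were C57BL/6-Pthtm1(P2A-tdTomato)/+ mice, 1 male at 8 weeks and 1 female at 11 weeks. Gcm2 is the transcription factor that parathyroid cells need to form, so the hosts lacked it while the cells picked came from the ESCs. Every experiment had 4 libraries named biological replicates. The labels do not say whether they came from separate animals, so p-values between libraries measure only the spread between these libraries. The rat host differed from the mouse hosts in species and age together. Mouse-host cells differed from controls in ESC origin, the Gcm2-/- host, strain and age together. The graft, 1 male experiment, differed from the mouse hosts in grafting and age together. The 2 control experiments differed from each other in sex and age together. Within each comparison these cannot be told apart. Both sexes were present among the mouse hosts and among the controls.

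Libraries held 29471254 to 32264864 reads in control experiment 1 and 9470744 to 15098391 in the others, so control experiment 1 has the finest floor. A count of 0 in the shallowest library allows up to 0.318 CPM (counts scaled to library size), against 0.0934 CPM in the deepest, both taken as 3 reads and covering counting error only. Parathyroid markers were abundant in every library: Pth, Gcm2, Casr, Chga and Gata3 summed to 257192 to 367105 CPM in the graft, 157272 to 177123 CPM in the rat host, 263904 to 363768 CPM in the mouse hosts and 294034 to 345600 CPM in controls. Fibroblast markers stood out in 2 libraries, at 3104 CPM in mouse-host experiment 2 replicate 4 and 4027 CPM in control experiment 2 replicate 3, against 255 to 1124 CPM in the other 30. In libraries of pooled cells, fewer cells of a type and less RNA per cell cannot be told apart.

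The promoters of Hoxa2 and Hoxa3 are shown because both genes carry reads, and that of Hoxa5 because it belongs to the same cluster and had 0 reads in all libraries. The windows are RefSeq entries on GRCm38.p6, minus strand of chromosome 6, from 250 bases before to 50 after the annotated start. They lie at chr6:52164782-52165081 for Hoxa2, chr6:52213018-52213317 for Hoxa3 and chr6:52204538-52204837 for Hoxa5. The Hoxa3 window thus lies upstream of the Hoxa5 window, out of the order of the cluster. Whether the Hoxa3 reads came from transcripts that start there was not tested. Capitals mark matches on either strand to CCAAT, the CCAAT box, or to TGATNNAT, a motif of Pbx-Hox dimers. None of the marked matches overlap.
Hoxa2: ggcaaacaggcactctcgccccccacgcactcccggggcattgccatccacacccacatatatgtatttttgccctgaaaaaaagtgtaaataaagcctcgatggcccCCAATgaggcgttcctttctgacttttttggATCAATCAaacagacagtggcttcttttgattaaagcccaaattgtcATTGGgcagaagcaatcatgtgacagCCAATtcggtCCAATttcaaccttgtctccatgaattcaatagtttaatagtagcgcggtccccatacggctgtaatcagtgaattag
Hoxa3: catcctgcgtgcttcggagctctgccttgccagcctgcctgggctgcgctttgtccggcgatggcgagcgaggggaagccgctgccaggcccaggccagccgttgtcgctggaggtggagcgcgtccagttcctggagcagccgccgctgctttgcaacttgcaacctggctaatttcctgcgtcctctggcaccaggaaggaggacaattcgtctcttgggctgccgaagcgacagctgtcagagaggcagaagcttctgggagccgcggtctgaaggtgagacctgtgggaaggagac
Hoxa5: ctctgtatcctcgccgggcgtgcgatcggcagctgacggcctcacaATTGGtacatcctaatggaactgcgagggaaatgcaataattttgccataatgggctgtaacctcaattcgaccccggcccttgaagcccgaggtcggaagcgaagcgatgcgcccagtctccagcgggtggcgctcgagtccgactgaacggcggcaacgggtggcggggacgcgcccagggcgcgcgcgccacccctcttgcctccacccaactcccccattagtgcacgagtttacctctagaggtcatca
The Hoxa2 window held 4 CCAAT matches and 1 TGATNNAT match, the Hoxa5 window held 1 CCAAT match, and the Hoxa3 window held neither. None of the 3 held TATAAA. Among all 32851 promoters of this length in the table, 37.4% held CCAAT, 8.85% held TGATNNAT and 13.6% held TATAAA. CpG dinucleotides numbered 9 for Hoxa2, 20 for Hoxa3 and 29 for Hoxa5, against a median of 7 over all promoters and 14.5 over the 24 Hox promoters in the table, which cover 22 Hox genes. These counts describe the letters of the window and say nothing of what binds there.

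The code was anterior in every arm and stopped almost entirely after paralog group 3. Hoxb2, Hoxa2, Hoxb3 and Hoxa3 held 13125 of the 13276 Hox reads, or 98.9%. Of 12 anterior genes (groups 1 to 4), 10 had reads, 13242 in all. Of 11 central genes (groups 5 to 8), 2 had reads, 34 in all. All 16 posterior genes (groups 9 to 13) had 0 reads in all 32 libraries. With all libraries pooled, 0 reads allow a gene up to 0.0065 CPM. By cluster, HoxA had 5188 reads, HoxB 8034, HoxC 36 and HoxD 18, so the code came from A and B.

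Anterior genes held 99.96% of Hox TPM (abundance scaled for depth and transcript length) in the graft, 100% in the rat host, 99.64% in the mouse hosts and 100% in controls. A gene was counted as expressed at a mean of at least 1 TPM over an arm's experiments with reads in at least 3 of 4 libraries of 1 experiment. Expressed genes numbered 4 in the graft (Hoxa2, Hoxb2, Hoxa3, Hoxb3), 2 in the rat host (Hoxa2, Hoxb2), 3 in the mouse hosts and 3 in controls (Hoxa2, Hoxb2, Hoxb3 in both). The graft count was 2 without graft replicate 2, 3 without replicate 1 or replicate 3, and 4 without replicate 4. At 1 TPM the arms differed in the group 3 genes counted, and this depended on the cut-off. At 1 CPM in place of 1 TPM, the graft, mouse hosts and controls each counted all 4 genes. The rat host then counted 3 (Hoxa2, Hoxa3, Hoxb2). At 0.5 TPM the graft counted 4, the rat host 3, the mouse hosts 4 and controls 3. Hoxb3 was at 0.172 TPM in the rat host, against 3.45 TPM in the mouse hosts and 2.91 TPM in controls. Hoxa3 stood just inside the 1 TPM cut-off at 1.01 TPM in the graft and just outside at 0.721 TPM in the mouse hosts.

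**Figure D1:**
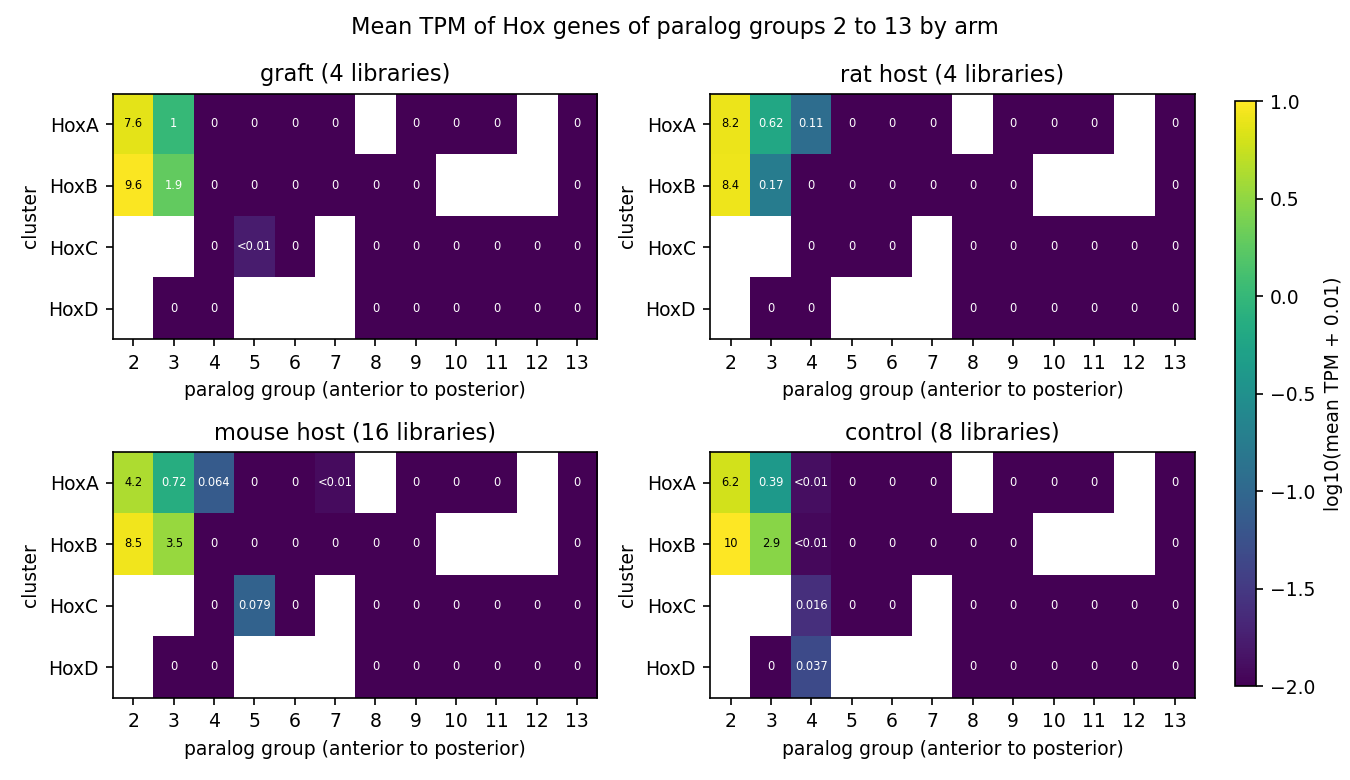
Mean TPM of the Hox genes of paralog groups 2 to 13 in each arm, by cluster (rows) and paralog group (columns). Colour is log10(mean TPM + 0.01), numbers are mean TPM and blank cells are positions with no gene in the mouse. In all 4 arms the brightest cells include Hoxa2 and Hoxb2, and groups 9 to 13 are at 0. Hoxa3 and Hoxb3 come next, but Hoxb3 is dim in the rat host, at 0.172 TPM.

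Hoxb2, which patterns the hindbrain in the mouse embryo, was the member most regularly detected. It had at least 3 reads in all 32 libraries. Hoxb2 was at 7.23, 7.17, 18.8 and 5.29 TPM in the graft replicates and at 13.3, 3.06, 5.91 and 11.3 TPM in the rat-host replicates. Over the 16 mouse-host libraries the lowest was 4.77, the median 8.33 and the highest 16.2 TPM, and over the 8 control libraries 5.83, 9.58 and 14.5 TPM. The arms overlapped, with graft replicate 3 the highest and rat-host replicate 2 the lowest library of all. Mean Hoxb2 was 9.62 ± 6.19 TPM in the graft and 8.40 ± 4.75 TPM in the rat host (SD over 4 libraries), 8.53 ± 1.13 TPM in the mouse hosts (SD over 4 experiments) and 10.0 ± 0.463 TPM in controls (SD over 2 experiments). It ranked 6316th of 19842 genes by mean TPM, so even the leading Hox gene was modest in level.

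Hoxa2, its paralog in group 2, was next in level and less regularly detected. Hoxa2 had 28 reads or more in 29 libraries but 1 or 2 reads in graft replicates 2 and 3 and in control experiment 2 replicate 4. Relative to its mean, its TPM varied less than that of Hoxb2 within the rat host and mouse-host experiments 1 and 4, and more within the other experiments. In TPM Hoxa2 was at 19.7, 0.0417, 0.104 and 10.4 in the graft replicates and at 6.12, 11.2, 6.32 and 9.22 in the rat-host replicates. The mouse-host libraries ran from a lowest of 1.89 through a median of 3.33 to a highest of 8.44 TPM, and the controls had 0.0529, 5.72 and 12.4 TPM. The graft thus held both the highest and the lowest value, and the rat-host libraries lay within the control range. Means were 7.56 ± 9.44 TPM in the graft, 8.22 ± 2.45 TPM in the rat host, 4.21 ± 1.15 TPM in the mouse hosts and 6.22 ± 2.30 TPM in controls, with SDs over the same units as for Hoxb2.

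**Figure D2:**
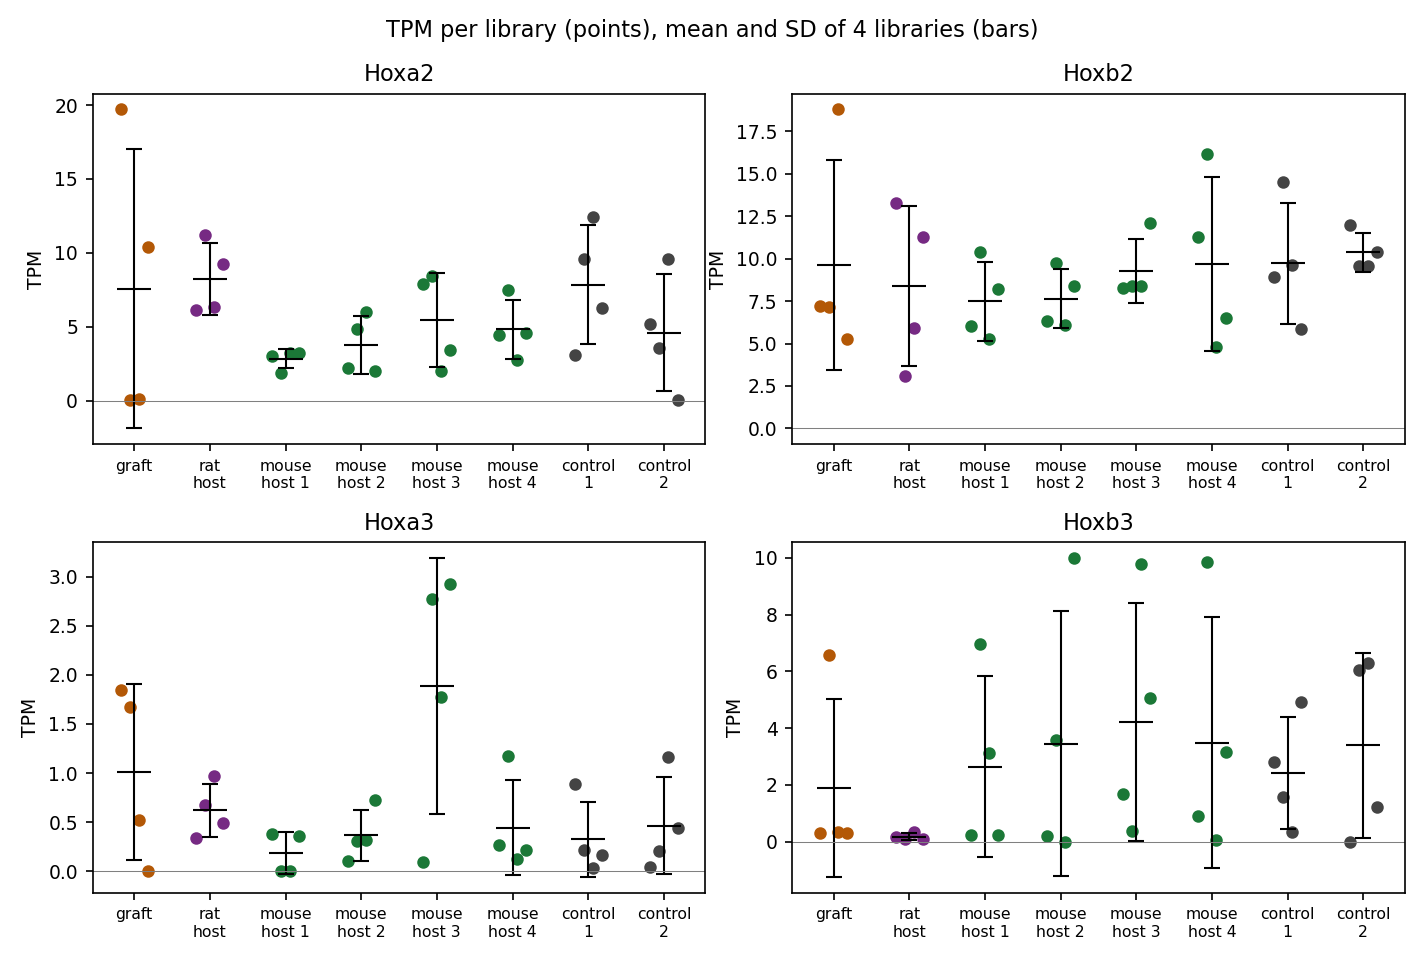
TPM of Hoxa2, Hoxb2, Hoxa3 and Hoxb3 in every library (points), with the mean and SD of the 4 libraries of each experiment (bars). Hoxb2 has reads in every library, Hoxa2 is near 0 in 2 graft libraries and 1 control library, and Hoxb3 is at or below 0.337 TPM in all 4 rat-host libraries.

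Hoxb3, a group 3 gene of the hindbrain and pharyngeal region in the mouse, was detected at low read counts. In the graft Hoxb3 was at 0.321, 6.59, 0.336 and 0.322 TPM, and in the rat host at 0.179, 0.089, 0.337 and 0.0834 TPM. Mouse-host libraries had a lowest of 0, a median of 2.41 and a highest of 10.0 TPM, and controls 0, 2.21 and 6.31 TPM. The rat-host libraries were all low and lay within the range of the others, and 1 graft library was far above the other 3. Mean Hoxb3 in CPM, which takes no account of length, was 3.38 ± 4.46 in the graft, 0.415 ± 0.283 in the rat host, 1.17 ± 0.457 in the mouse hosts and 2.10 ± 0.793 in controls.

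Much of the TPM of Hoxb3 came from a short non-coding transcript. Hoxb3-204, a processed transcript of 446 bases with a median effective length of 143 bases, turns few reads into a high TPM. It held 51.4% of Hoxb3 TPM but 5.59% of its reads in the graft, 0 of both in the rat host, 93.1% of TPM and 40.5% of reads in the mouse hosts, and 82.1% and 15.9% in controls. It had reads in 1 of 4 graft, 0 of 4 rat-host, 10 of 16 mouse-host and 6 of 8 control libraries. Counting protein-coding transcripts alone, Hoxb3 was at 0.92 ± 1.19 TPM in the graft, 0.172 ± 0.118 TPM in the rat host, 0.237 ± 0.138 TPM in the mouse hosts and 0.521 ± 0.304 TPM in controls. On that basis, chosen after the data were seen, the expressed genes numbered 3, 2, 2 and 2 in those arms and Hoxb3 left the code everywhere.

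**Figure D3:**
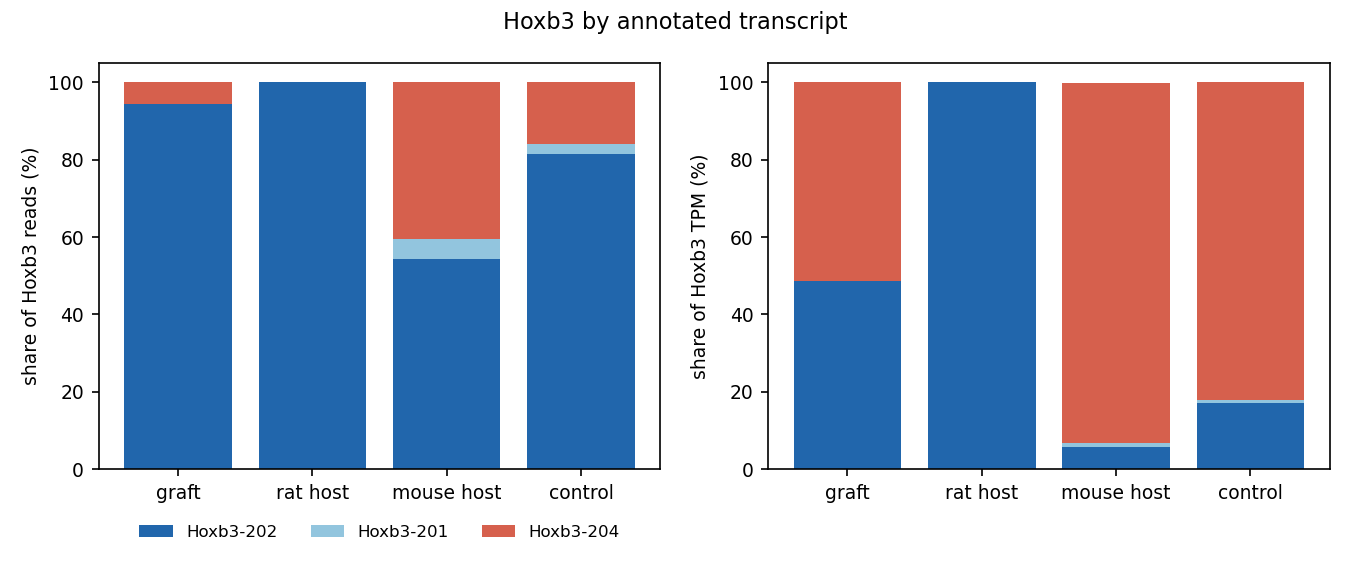
Share of Hoxb3 reads (left) and of Hoxb3 TPM (right) given to each annotated transcript in each arm. Hoxb3-202 and Hoxb3-201 are protein-coding and Hoxb3-204 is not. Hoxb3-204 takes 93.1% of TPM from 40.5% of reads in the mouse hosts and has no reads in the rat host.

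Hoxa3, the group 3 gene needed for the mouse parathyroid primordium, had the lowest mean TPM of the 4 over all experiments. Its mean was 0.663 TPM, against 2.71 TPM for Hoxb3. In the rat host Hoxb3 was the lower, at 0.172 TPM against 0.622 TPM. On protein-coding transcripts alone, a basis chosen after the data were seen, Hoxb3 was below Hoxa3 in all arms but the controls. The values were 0.237 against 0.721 TPM in the mouse hosts, 0.92 against 1.01 TPM in the graft and 0.521 against 0.389 TPM in controls. Hoxa3 was at 1.85, 1.67, 0.525 and 0 TPM in the graft and at 0.341, 0.678, 0.974 and 0.494 TPM in the rat host. Mouse-host libraries had a lowest of 0, a median of 0.318 and a highest of 2.92 TPM, and controls 0.0382, 0.213 and 1.16 TPM. Of the mouse-host libraries, 3 of the 4 in experiment 3 lay above all control libraries, at 2.77, 1.77 and 2.92 TPM, and 1 in experiment 4 just above them, at 1.17 TPM. Replicates 2 and 3 of mouse-host experiment 1 were at 0, below all control libraries, and the others lay within the control range. Experiment means were 0.185, 0.367, 1.89 and 0.446 TPM in mouse-host experiments 1 to 4. Means over arms were 1.01 ± 0.893 TPM in the graft, 0.622 ± 0.272 TPM in the rat host, 0.721 ± 0.785 TPM in the mouse hosts and 0.394 ± 0.0967 TPM in controls. The remaining group 3 gene, Hoxd3, had 0 reads.

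The 4 genes were found together more often than not. All 4 had at least 3 reads in 23 of 32 libraries, namely 1 of 4 graft, 4 of 4 rat-host, 12 of 16 mouse-host and 6 of 8 control libraries. Hoxb2 had the highest TPM of all Hox genes in 22 libraries, Hoxa2 in 8 and Hoxb3 in 2, both of these from mouse hosts. Hoxa2 exceeded Hoxa3 in 29 libraries and Hoxb2 exceeded Hoxb3 in 30. Group 2 genes held 83.16% of Hox TPM in the graft, 90.53% in the rat host, 78.92% in the mouse hosts and 82.82% in controls, and group 3 held 16.81%, 4.67%, 20.20% and 16.96%. These values include Hoxb3-204. On protein-coding transcripts alone, an alternative chosen after the data were seen, group 3 held 13.2%, 5.09%, 6.84% and 7.34% in those arms. Group 2 held 86.7%, 89.7%, 91.6% and 92.4%, and Hoxb3 was the highest in 0 libraries. Hoxa2 was then the highest in 3 of 4 rat-host libraries and Hoxb2 in 1. Hoxb2 was the highest in 2 of 4 graft, 13 of 16 mouse-host and 5 of 8 control libraries, and Hoxa2 in 2, 3 and 3.

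Antisense genes lie over these loci, and no source used here says that reads were counted by strand. In the GENCODE annotation Hoxb3os covers 27.3% of the exon bases of Hoxb2 and 52.9% of those of Hoxb3. Hoxaas2, the antisense gene with the widest overlap of Hoxa3, covers 8.36% of its exon bases. None of these antisense genes was among the transcripts quantified, so their reads cannot be told apart from those of the Hox genes. A read-through transcript on the same strand, Gm28308, shares sequence with Hoxa2 and Hoxa3 and was given 27 reads in all. Within Hoxb2, 32.6% of reads went to a retained-intron transcript.

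Differences between arms were tested on expected counts summed per experiment with edgeR's quasi-likelihood test and Benjamini-Hochberg adjustment over all genes tested. The graft and the rat host had 1 experiment each and are assumed to vary like the mouse-host and control experiments. No Hox gene was called in any of the 3 comparisons, and none had an unadjusted p under 0.05. Of the 39 genes, 7 passed the filter on low counts. They were the 4 above and 3 that passed on reads in a few libraries only, Hoxa4 and Hoxc5 among them.

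Mouse-host cells were set against controls to ask whether ESC-derived cells share the code of the ordinary gland. Here 0 of 7 Hox genes were called, where 0% of all 15698 genes were called (691 had an unadjusted p under 0.05). The log2 difference was -0.29 for Hoxb2 (95% interval -1.03 to 0.45, adjusted p = 0.971) and -0.62 for Hoxa2 (-1.67 to 0.44, adjusted p = 0.913). For Hoxb3 it was -0.86 (-2.98 to 1.25, adjusted p = 0.968) and for Hoxa3 0.78 (-2.04 to 3.60, adjusted p = 1). The intervals leave room for changes in either direction, least for Hoxb2 and most for Hoxa3. Hoxa3 turned negative, at -0.37, when mouse-host experiment 3 was left out. DESeq2 on the same sums called no Hox gene and 135 genes in all.

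Cells from the rat host were set against cells from mouse hosts. No Hox gene of the 7 was called, where 0.643% of all genes were. The log2 difference was -0.30 for Hoxb2 (-1.29 to 0.69, adjusted p = 0.866), 0.62 for Hoxa2 (-0.72 to 1.96, adjusted p = 0.756) and -0.55 for Hoxa3 (-4.21 to 3.10, adjusted p = 0.962). Hoxa3 changed sign, to 0.60, without mouse-host experiment 3. For Hoxb3 it was -1.44 (-4.56 to 1.68, adjusted p = 0.756) on counts. On log2(mean TPM + 0.5), limma called Hoxb3 lower in the rat host, at -2.54 (adjusted p = 0.0383) and with Hoxb3-204 included. Protein-coding Hoxb3 was at 0.172 ± 0.118 TPM in the rat host (SD over 4 libraries) and 0.237 ± 0.138 TPM in the mouse hosts (SD over 4 experiments). This difference was not tested, and the SDs measure unlike spreads. Pth and Chga, the most abundant parathyroid markers, were called lower in the rat host (log2 -0.998 and -0.781, adjusted p = 0.0354 and 0.0226), though not on TPM. Both calls were also lost without control experiment 1 or 2 or mouse-host experiment 3 or 4. Over all 49 alternatives, those on TPM included, the largest adjusted p was 0.638 for Pth and 0.682 for Chga. Fibroblast markers summed to 255 to 411 CPM in the rat-host libraries, against 441 to 3104 CPM in the mouse-host libraries, with no overlap. All 8 were lower in estimate, Fbln1 hardly so (log2 -0.054). Fbln1 and Postn had the highest mean TPM of the 8 (141 and 118 over all libraries) and reads in all 32 libraries. The others had reads in 10 to 21 libraries. Postn, a matrix protein of fibroblasts, was the 1 of the 8 called (log2 -2.51 ± 0.284, SE, adjusted p = 0.0190), a call lost without control experiment 1 or 2 (largest adjusted p = 0.0622). The part of either marker set in the Hox levels was not tested.

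Grafted cells were set against cells from mouse hosts. No Hox gene of the 7 was called, where 0.115% of all genes were. The log2 difference was 0.25 for Hoxb2 (-0.69 to 1.20, adjusted p = 0.823), 0.96 for Hoxa2 (-0.35 to 2.27, adjusted p = 0.543), 1.69 for Hoxb3 (-0.85 to 4.22, adjusted p = 0.582) and 0.68 for Hoxa3 (-2.68 to 4.04, adjusted p = 0.874). The first 3 each turned on a single library. Hoxb2 was -0.25 without graft replicate 3, Hoxa2 was -0.058 without graft replicate 1 and Hoxb3 was -0.011 without graft replicate 2.

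**Figure D4:**
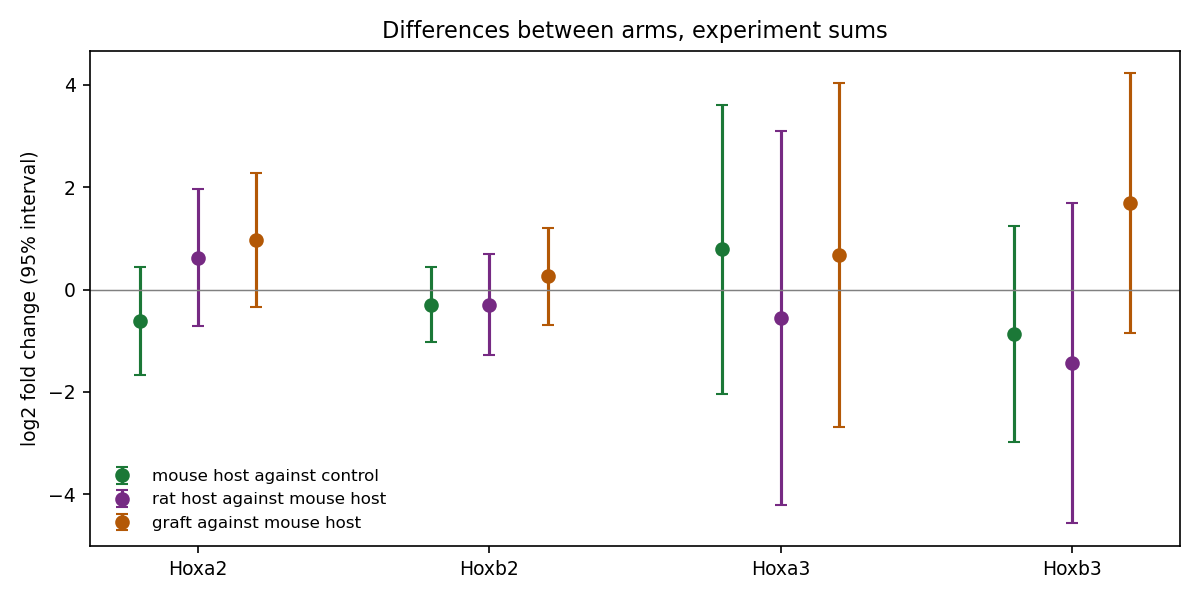
Log2 fold change of the 4 Hox genes in the 3 comparisons between arms (points) with 95% intervals (bars), from counts summed per experiment. Every interval includes 0. Those of Hoxb2 are the narrowest and those of Hoxa3 and Hoxb3 the widest.

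Repeats of one arm were compared library by library. Among the 4 mouse-host experiments 0 of 4 Hox genes tested were called, where 1.35% of 12195 genes were. The smallest adjusted p was that of Hoxa3, 0.596. Between control experiment 2 and control experiment 1, 0 of 4 were called, where 0.0173% of 11544 genes were, and the log2 differences were -0.06 for Hoxb2, -0.76 for Hoxa2, -0.77 for Hoxb3 and 0.52 for Hoxa3 (adjusted p = 1 for each). None of the 4 had an unadjusted p under 0.05 in either comparison.

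The other 8 genes with reads shared 151 reads, and those named here were picked out after their values were seen. Hoxd1, of group 1, had 13 reads in rat-host replicate 4 alone. Hoxa4 had 6 reads in rat-host replicate 3, 12 in mouse-host experiment 3 replicate 3, 5 in mouse-host experiment 4 replicate 1 and 1 in control experiment 1 replicate 3. Hoxd1 and Hoxa4 thus had reads in 1 and 4 of the 32 libraries and were at 0 in the graft. Hoxa7 had 1 read in mouse-host experiment 3 replicate 4, and Hoxb4 had 1 in control experiment 1 replicate 1.

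Most reads of Hoxc4, Hoxc5 and Hoxd4, a set grouped after its values were seen, came from the 2 libraries with the most fibroblast marker reads. Hoxc5 had 31 reads in mouse-host experiment 2 replicate 4 and 1 read in each of graft replicate 3 and mouse-host experiment 3 replicate 2. Hoxc4 and Hoxd4 had 3 and 5 reads in control experiment 2 replicate 3. Mouse-host experiment 2 replicate 4 had 3104 CPM of fibroblast markers and control experiment 2 replicate 3 had 4027 CPM. The 12 reads of Hoxa4 in mouse-host experiment 3 replicate 3 and the 1 read of Hoxa7 in replicate 4 of that experiment fell in libraries with 709 and 729 CPM of these markers, and the 1 read of Hoxb4 in a library with 863 CPM. Endothelial, macrophage and thymic epithelial markers summed to at most 3.59, 15.6 and 0.514 CPM in any library. Markers of smooth muscle and pericytes, thyroid follicles, C cells and Schwann cells reached at most 33.0, 4.48, 15.0 and 18.7 CPM. Control experiment 2 replicate 3 also held the endothelial, macrophage and thyroid maxima, and mouse-host experiment 2 replicate 4 the smooth muscle maximum. The part of fibroblasts or of these other cell types in the Hox reads was not tested. Without both libraries the anterior share in the mouse hosts was 99.98%.

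**Figure D5:**
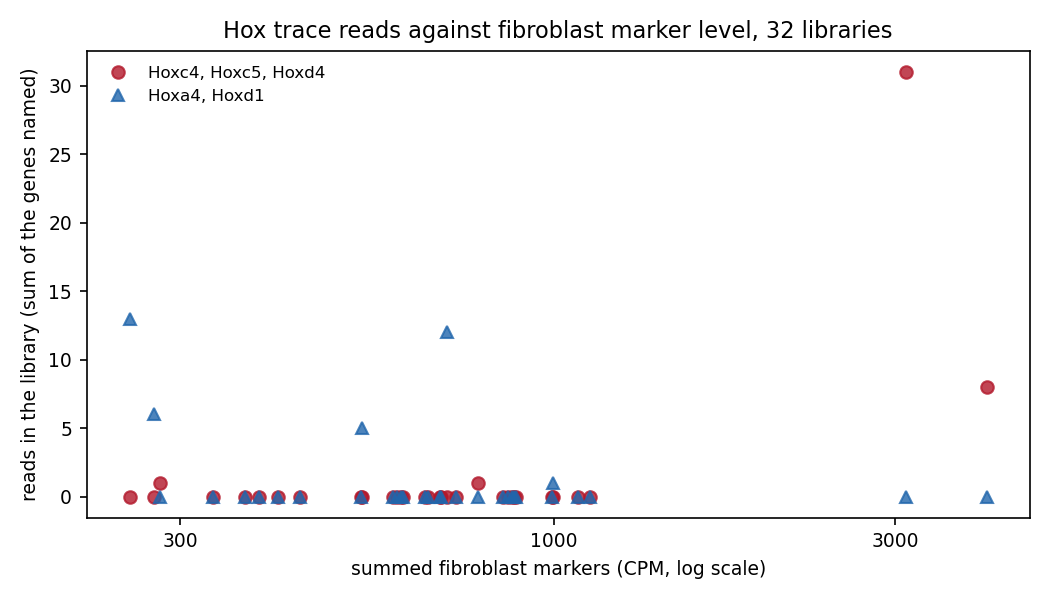
Reads of Hoxc4, Hoxc5 and Hoxd4 (circles) and of Hoxa4 and Hoxd1 (triangles) in each of the 32 libraries, against the summed CPM of 8 fibroblast markers on a log scale. The 31 and 8 reads of the first set lie at 3104 and 4027 CPM, and the second set lies at lower marker levels.

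Hox proteins bind DNA with the cofactors Pbx, Meis and Pknox, and all 9 such genes had reads. Pbx4, Meis3, Meis2 and Pknox1 had the highest mean TPM. Pbx4 was at 11.5 TPM in the graft, 39.2 in the rat host, 31.5 in the mouse hosts and 24.6 in controls, and Meis3 at 8.49, 26.3, 12.7 and 17.1 TPM in the same order. Meis2 was at 9.24, 6.66, 6.62 and 5.87 TPM and Pknox1 at 5.12, 7.03, 5.70 and 4.52 TPM. None of the 9 was called in any of the 5 comparisons. Their median log2 difference was 0.08 in mouse hosts against controls (0.01 over all genes), 0.14 in the rat host against mouse hosts (-0.03) and -0.01 in the graft against mouse hosts (-0.10 over all genes).

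Retinoic acid turns on anterior Hox genes in the embryo. Of 18 genes of its pathway 13 were tested. In the rat host 1 of the 13 rose, where 0.643% of all genes were called, and in the other 2 arm comparisons 0 of the 13 were called. Aldh1a3, which makes retinoic acid, was at 486, 492, 761 and 592 TPM in the rat-host replicates, against 134 to 240 TPM in the mouse-host libraries, with no overlap. Its log2 difference was 1.42 ± 0.21 (SE, adjusted p = 0.0368), and the call was lost when control experiment 1 or 2 or mouse-host experiment 2, 3 or 4 was left out (largest adjusted p = 0.0855). The graft had 121 to 190 TPM and controls 133 to 248 TPM. Rxrb and Dhrs3, a receptor and a reductase of the pathway, were the next highest in level, at 29.3 and 5.24 TPM in the rat host and 18.6 and 7.25 TPM in the mouse hosts. Aldh1a2, the main embryonic synthetic enzyme, and the degrading enzymes Cyp26a1 and Cyp26c1 had 0 reads in every library.

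Several regulators upstream of the Hox genes were silent. Of 11 listed, Cdx1, Cdx4, Gbx2, Fgf8 and Wnt3a had 0 reads, and Cdx2, an activator of posterior Hox genes, had 2 reads in 1 library. Ets1 was at 4.38 TPM in the graft, 10.8 in the rat host, 9.65 in the mouse hosts and 8.38 in controls, and Gdf11 and Egr2 stayed under 1 TPM in each. None of the 5 that could be tested was called.

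Polycomb proteins keep Hox genes silent and trithorax proteins keep them active. All 30 listed genes had reads and were tested, and none was called between arms. Rbbp7, Rbbp4, Ash2l and Cbx6 were the highest, with Rbbp7 at 158 TPM in the graft, 317 in the rat host, 183 in the mouse hosts and 185 in controls. Rbbp4 was at 68.3, 71.7, 66.0 and 97.0 TPM, Ash2l at 22.5, 40.2, 25.6 and 30.5 TPM and Cbx6 at 39.2, 20.2, 25.5 and 25.6 TPM. Ezh2, a writer of the repressive mark, was at 3.42, 6.65, 4.33 and 2.96 TPM. Its paralog Ezh1, from the same list, was at 2.26, 6.50, 14.5 and 10.0 TPM. Ezh1 was lower in estimate in the graft and the rat host than in the mouse hosts (log2 -2.30 and -1.53), neither called.

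Genes of the pharyngeal pouch accompany Hoxa3 in parathyroid development. None of the 13 listed was called between arms, and Gcm2, Gata3 and Pax9 were among the highest in level. Gata3 was at 112 TPM in the graft, 265 in the rat host, 193 in the mouse hosts and 135 in controls. Gcm2 and Pax9, 2 of the 9 tested, were called among the mouse-host experiments, where 1.35% of all genes were (adjusted p = 0.00669 and 0.00824). Gcm2 averaged 280, 427, 539 and 352 TPM and Pax9 39.7, 74.8, 99.9 and 79.0 TPM in mouse-host experiments 1 to 4. Both were highest in experiment 3, the experiment with the highest mean Hoxa3, and lowest in experiment 1, the one with the lowest. Hoxa2 (2.83 and 5.44 TPM) and Hoxb3 (2.64 and 4.22 TPM) were also lowest in experiment 1 and highest in experiment 3. Hoxb2 was lowest in experiment 1 but highest in experiment 4. This order was picked out after the values were seen, and Hoxa3 had 20 reads in experiment 1 and was not called among these experiments. A link between these genes was not tested.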

How the data were processed

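Transcript abundance was measured in 32 libraries. The submitters' processing notes name Salmon as the tool that the authors ran and GRCm39 as the genome. Not given in the sources used here are Salmon's version, strand setting and transcript set. Deposited values are expected counts (estimated reads, not normalized) and TPM (scaled by the authors for effective length and depth) for 116747 transcripts.

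Transcripts were summed to genes through GENCODE M21 by Ensembl transcript ID. Of them 1062 were unmatched, with 0.493% of reads. Expected counts were rounded to whole numbers and summed per experiment. edgeR 4.0.16 (R 4.3.3; TMM, filterByExpr, glmQLFit and glmQLFTest) fitted all 8 experiments with a coefficient per arm, without a replicate block, and calls were made at an adjusted p below 0.05. Within an arm, single libraries were tested. Levels of different genes were set side by side in TPM only. DESeq2 1.42.0 and limma 3.58.1 served as alternatives. The edgeR script was tested on simulated data. Within experiments, the 48 library pairs differed beyond sampling noise (lowest chi-square per degree of freedom 41), so none was merged. Named genes were the Hox genes expressed in at least 1 arm, and in each list the called members and the 4 with the highest mean TPM. The rule also asked for 3 posterior genes, but all had 0 reads. Further list members, Ezh1 and Ezh2 among them, were named outside this rule. The Hox genes and all lists were chosen with earlier results of these data known. Of 15 non-coding genes of the Hox clusters listed, 0 were in the tables and they were not analysed here. Values of a few members of the lists and of the Hox set are not reported here.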

Additional observations from a re-analysis of the deposited data

Results flagged for a closer look

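Of 43 groups of 4 libraries examined, 6 held a library that stood apart from the other 3 by Dixon's criterion. Chance alone marks about 1 group in 20. In the graft, Hoxb2 was 18.8 TPM in replicate 3 and 5.29 to 7.23 TPM in the others, and Hoxb3 was 6.59 TPM in replicate 2 and 0.321 to 0.336 TPM in the others. In the mouse hosts, Hoxb2 was 12.1 TPM in experiment 3 replicate 4 and 8.30 to 8.39 TPM in the others, and Hoxa3 was 1.17 TPM in experiment 4 replicate 2 and 0.124 to 0.266 TPM in the others. The anterior share was 99.86% in graft replicate 3, which had 1 read of Hoxc5, and 94.52% in mouse-host experiment 2 replicate 4, which had 31, and 100% in the other libraries of both groups. Where 3 libraries are tied at 100%, any lower share is marked, so the rate of 1 in 20 does not apply to these 2 shares.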

How the results depend on the processing

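The number of Hox genes called stayed at 0 in all 5 comparisons under every alternative run but limma on TPM, with pseudocount 0.5 or 0.1, which called 1 (Hoxb3) in the rat host against mouse hosts at -2.54 and -3.69 (adjusted p = 0.0383 and 0.0216). Over the 49 alternatives its adjusted p ran from 0.0216 to 0.887. In mouse hosts against controls, Hoxb3 became 0.21 and 0.24 on TPM and 0.062 with counts scaled from TPM, and Hoxa3 -0.37 without mouse-host experiment 3. In the rat host, Hoxa3 became 0.55 with limma voom, 0.06 and 0.23 on TPM and 0.60 without mouse-host experiment 3. In the graft, Hoxa2 became -1.60 with limma voom. Hoxb3 in the graft became -0.71 and -0.81 on TPM, and -0.50 with counts scaled from TPM. With a library left out, the graft values ran from -0.25 to 0.42 for Hoxb2 (lowest without graft replicate 3), -0.058 to 1.43 for Hoxa2 (without graft replicate 1) and -0.011 to 2.01 for Hoxb3 (without graft replicate 2). None of these reversals had a called value, and the cause was not tested. Expressed genes in the graft numbered 2 at a threshold of 2 TPM and 2 to 4 with a library left out.

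Counts over all genes moved more. Mouse hosts against controls gave 0 to 135 genes, the rat host 12 to 1043 and the graft 0 to 1010, with the highest from DESeq2 except in the rat host (limma voom). Among mouse-host experiments they ran from 78 to 846 and between controls from 0 to 125. With the replicate number as a block, 0 Hox genes were called in each comparison. Same-numbered libraries did not deviate together (median r = -0.006, 112 pairs), so the numbers do not pair the samples. Hoxb3 and Hoxa3 had fewer reads in all than Hoxb2 and Hoxa2, with under 40 reads in most libraries. The part of depth in these low counts was not tested.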
